A study of Mus musculus with 15 samples.

Results

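Genes of the choroid plexus and of the ependyma, the epithelia that make and line the cerebrospinal fluid space next to the hippocampus, were examined in hippocampal RNA of mice during extinction of contextual fear. The set consists of 40 gene names, 26 of choroid plexus epithelium and 14 of ciliated ependymal cells. Members were taken where the gene name in the array files equalled a listed name, and the probe with the highest mean over the 15 arrays stood for the gene. Of the 40 names, 34 matched (23 choroid plexus and 11 ependymal), of 26117 genes tested in all. All 34 passed the filter on dim probes, and 33 were well above background on all 15 arrays. The exception was Cldn1, which was well above background on 14.

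The choroid plexus is a folded sheet of epithelium that hangs into each brain ventricle. It secretes cerebrospinal fluid, exports carrier proteins such as transthyretin into it and holds the barrier between blood and fluid with claudin junctions. Ependymal cells line the ventricle wall and move the fluid with motile cilia, whose genes are switched on by the transcription factor Foxj1 together with RFX factors. Neither cell type belongs to the hippocampus proper, but both lie against it in the lateral ventricle.

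The samples came from male C57BL/6J mice, an inbred strain, and each array held the hippocampal RNA of a single mouse; ages are not given. All 3 groups had 5 arrays. Control mice had been placed in the conditioning context without receiving the shock, although the sample names call them naive. E1 mice received a foot shock in a context and were sampled 1 h after the first extinction trial, that is, after re-exposure to the context with no shock. ELF mice had trials at 24 h intervals and were sampled 1 h after the trial at which freezing had declined, which was trial 5. Labels describe the arrays of a group as biological replicates. Values are log2 intensities relative to the 75th percentile of the same array, so a value of 0 is that percentile and a difference of 1 is a 2-fold change.

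Promoter sequences are shown because the members belong to 2 cell types, and a short core read by the RFX factors of ciliated cells was found in most ependymal and few choroid plexus promoters. RefSeq (GRCm38.p6) gave promoters for 19 of the 26 choroid plexus names and 10 of the 14 ependymal names, each reaching from 250 bases before to 50 bases after the start. The 6 letters GTTGCC, or GGCAAC on the other strand, form this RFX core, and they were searched on both strands with overlaps allowed. The last 120 bases before the start are printed for 5 ependymal and 2 choroid plexus genes that hold the RFX core there, with each RFX core in capitals. In the Mlf1 promoter the forkhead core is in capitals too, as TGTTTAC.
Dynlrb2 (chr8:116504895-116505014, + strand): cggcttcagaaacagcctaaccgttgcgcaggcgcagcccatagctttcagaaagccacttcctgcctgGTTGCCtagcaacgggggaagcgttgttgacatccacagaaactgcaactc
Tekt1 (chr11:72361883-72362002, - strand): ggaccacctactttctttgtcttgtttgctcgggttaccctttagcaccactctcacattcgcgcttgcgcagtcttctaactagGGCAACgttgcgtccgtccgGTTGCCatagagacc
Hydin (chr8:110266857-110266976, + strand): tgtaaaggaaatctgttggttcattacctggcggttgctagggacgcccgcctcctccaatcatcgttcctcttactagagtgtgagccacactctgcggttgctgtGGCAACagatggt
1110017D15Rik (chr4:41507765-41507884, - strand): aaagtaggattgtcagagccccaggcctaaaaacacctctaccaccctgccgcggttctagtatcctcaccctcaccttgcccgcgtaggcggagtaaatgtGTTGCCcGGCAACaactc
Mlf1 (chr3:67373977-67374096, + strand): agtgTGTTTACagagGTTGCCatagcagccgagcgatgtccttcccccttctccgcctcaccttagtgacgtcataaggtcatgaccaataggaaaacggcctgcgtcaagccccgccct
Kcne2 (chr16:92292269-92292388, + strand): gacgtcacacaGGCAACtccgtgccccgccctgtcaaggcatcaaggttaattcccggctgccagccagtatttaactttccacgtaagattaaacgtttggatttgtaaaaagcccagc
Aqp1 (chr6:55336179-55336298, + strand): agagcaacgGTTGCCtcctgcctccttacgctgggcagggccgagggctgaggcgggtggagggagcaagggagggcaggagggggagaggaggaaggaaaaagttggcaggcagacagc

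The RFX core was in the promoter of 8 of 10 ependymal genes (1110017D15Rik, Ccdc153, Dynlrb2, Hydin, Mlf1, Spag6l, Tekt1 and Tekt4) and of 4 of 19 choroid plexus genes (Aqp1, Kcne2, Otx2 and Steap1). Over all 27025 genes of the promoter table, 14.1% held it. The forkhead core GTAAACA was in 2 of 10 ependymal genes (Ak7 and Mlf1) and 1 of 19 choroid plexus genes (Prlr), against 4.1% of all genes. The bicoid core TAATCC, the letters read by OTX factors, was in 3 of 19 choroid plexus genes (Ace, Mfrp and Otx2) and 1 of 10 ependymal genes (Mlf1), against 8.1% of all genes. These are letter matches and say nothing of binding.

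One array stood apart for these genes. The third ELF array (ELF 3) held the lowest of the 15 values for 23 of 23 choroid plexus genes and for 7 of 11 ependymal genes, whereas over all genes it held the lowest value for 6.17%. It was not a generally dim array, as 88.6% of its spots were well above background within a range of 83.5% to 97.2% over the arrays. Differences between the ELF group and the others are therefore mostly given with and without ELF 3. The arrays lay on 4 slides, and control and ELF arrays never shared one. Control arrays were on slide 1 (4) and slide 2 (1), E1 arrays on slide 2 (3) and slide 3 (2), and ELF arrays on slide 3 (2, with ELF 3 among them) and slide 4 (3).

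**Figure D1:**
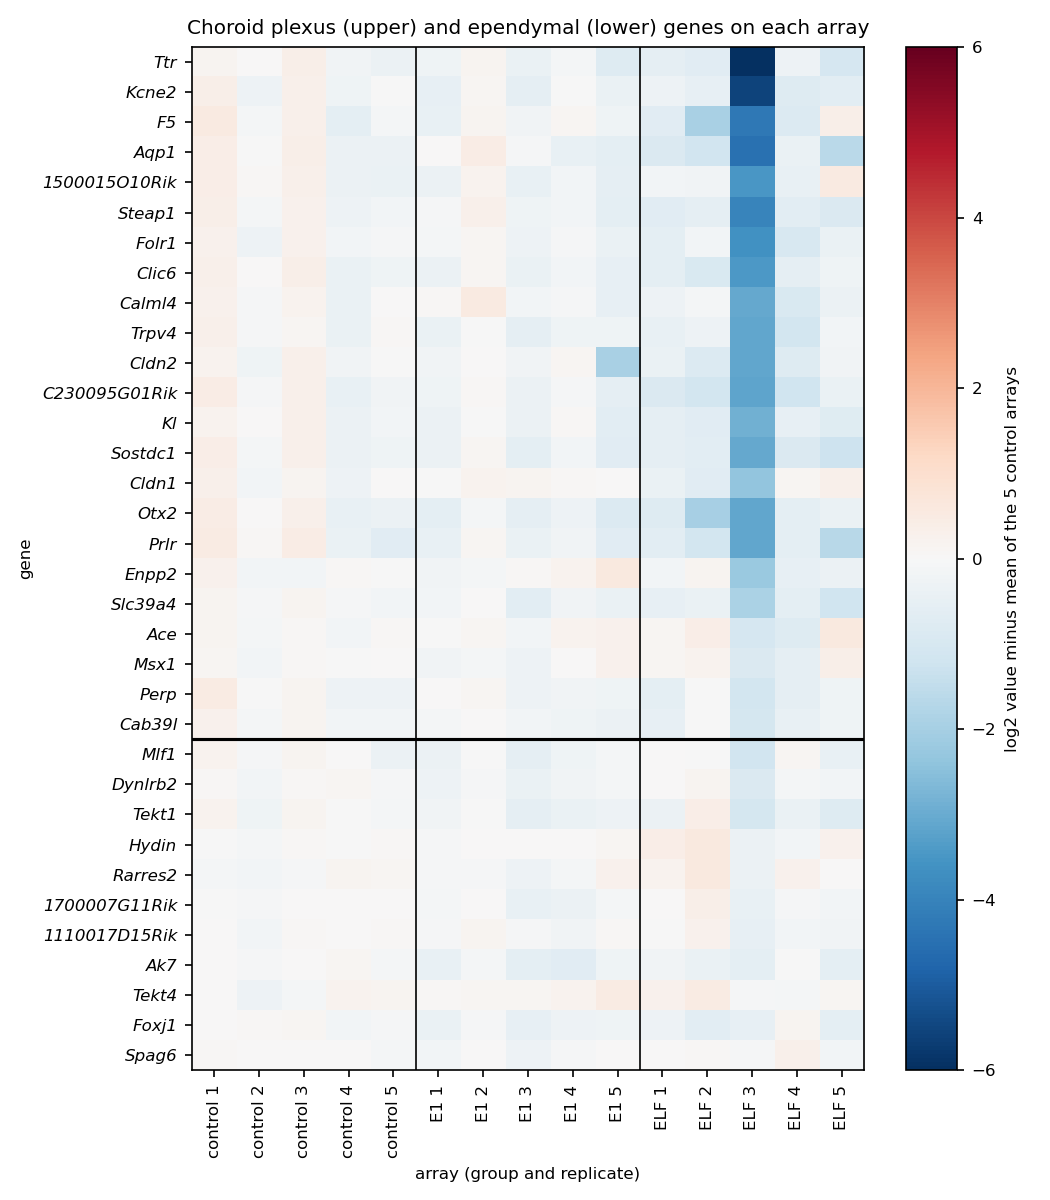
Colour shows the log2 value of each of the 34 genes on each of the 15 arrays minus that gene's mean over the 5 control arrays; the horizontal line parts the 23 choroid plexus genes (above) from the 11 ependymal genes (below). The ELF 3 column is blue through the whole upper block, down to -6.14 for Ttr, and pale in the lower block.

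In ELF compared with control, every one of the 23 choroid plexus genes had a lower mean, with differences from -1.74 (Ttr) to -0.14 (Ace) and a median of -1.08, while the median over all genes was 0.10 and 35.2% of all genes were below 0. None passed limma's test at an adjusted p under 0.05 over all genes, against 2.1% of all genes called in either direction and 0.651% called lower. At an unadjusted p under 0.05 the number was 16 of 23. The share of all genes under that threshold was not counted, here or for the unadjusted counts below. It was above what the threshold alone gives, since Cldn2, with a limma p of 0.0496, had an adjusted p of 0.217. These unadjusted counts are therefore no result by themselves. In 5 of the 23 (Kl, Sostdc1, Aqp1, Slc39a4 and Steap1) all ELF arrays lay below all control arrays, which held for 2.23% of all genes. Without ELF 3 the median of the list was -0.56, 21 of 23 genes were below 0, and 1 gene, C230095G01Rik, was called lower (-0.88, limma adjusted p = 0.0485), where 0.479% of all genes were. At the probes used, the genes above 0 without ELF 3 were Ace and Msx1. In whole tissue, fewer cells of a type and less RNA per cell cannot be told apart.

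Carriers and secreted proteins form the first group of choroid plexus genes. Ttr, which encodes transthyretin, the carrier of thyroid hormone and retinol in cerebrospinal fluid, read 4.49, 4.35, 4.70, 4.11 and 4.00 on control arrays 1 to 5. On E1 arrays 1 to 5 Ttr read 4.09, 4.51, 3.92, 4.20 and 3.54, and on ELF arrays 1 to 5 it read 3.79, 3.64, -1.81, 4.02 and 3.35. The value on ELF 3 was 45.3-fold below the mean of the other 4 ELF arrays, and those 4 overlapped with the control range at ELF 4 alone. The group means were 4.33 ± 0.28 (SD, n = 5) in control and 3.70 ± 0.28 (SD, n = 4) over the ELF arrays other than ELF 3. With all arrays the ELF minus control difference was -1.74 (SE 0.85, limma adjusted p = 0.236), and without ELF 3 it was -0.64.

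Sostdc1, a secreted antagonist of BMP and Wnt signals (probe at chr12:34157815-34157874 in mm7), had the smallest p of this group. It read 1.89, 1.37, 1.78, 1.13 and 1.25 in control, 1.14, 1.58, 0.90, 1.34 and 0.81 in E1, and 0.95, 0.83, -1.57, 0.64 and 0.23 in ELF. Each ELF array was below each control array, also among the 4 arrays other than ELF 3, while E1 overlapped with both. The difference of -1.27 from control to ELF (SE 0.39) had a limma adjusted p of 0.0839, and without ELF 3 it was -0.82 (limma adjusted p = 0.0565).

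Of the other secreted proteins, Kl (klotho, a co-receptor for Fgf23 that is also shed into the fluid) was 1.51 ± 0.27 (SD, n = 5) in control and 0.89 ± 0.10 (SD, n = 4) on the ELF arrays other than ELF 3, with a single value of -1.37 on ELF 3. Its ELF minus control difference was -1.07, or -0.62 without ELF 3. A further Kl probe gave only -0.27, or -0.06 without ELF 3. F5, coagulation factor V, stood 11.5-fold lower on ELF 3 than on the other 4 ELF arrays, which themselves ranged from -3.05 to -0.77. 1500015O10Rik, now Ecrg4, the precursor of a secreted peptide, was 10.6-fold lower on ELF 3, yet its highest value of all 15 arrays was on ELF 5, at 3.21. Ace, the angiotensin-converting enzyme, was 2.11-fold lower on ELF 3 and likewise highest on ELF 5. These genes therefore shared the low array but not the order of the other ELF arrays.

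Enpp2, the secreted enzyme autotaxin, needs a separate reading. Its brightest probe was saturated on all 5 control arrays, on 4 of 5 E1 arrays and on 4 of 5 ELF arrays, ELF 3 being the exception at 2.67. Both group means are therefore capped and no fold is given; the measured difference was -0.61 (limma adjusted p = 0.292), and -0.21 without ELF 3. A second Enpp2 probe stood at -2.61 on ELF 3 relative to the mean of the other ELF arrays, with an ELF minus control difference of -0.12 that became 0.40 without ELF 3.

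Channels and transporters, which move ions, water and metals across the epithelium, were lower on ELF 3 than on the other 4 ELF arrays by a median of 8.63-fold over 6 genes. Kcne2, an accessory subunit of potassium channels, was singled out after its values were seen because only Ttr had a larger gap on that array. It read 2.59, 1.95, 2.56, 1.99 and 2.22 in control, 1.77, 2.36, 1.71, 2.23 and 1.84 in E1, and 1.97, 1.79, -3.31, 1.51 and 1.64 in ELF. The 14 arrays other than ELF 3 spanned 1.51 to 2.59, and ELF 3 lay 4.81 log2 units under the lowest of them.

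Slc39a4, a zinc importer (probe at chr15:76694988-76695047 in mm7), had the smallest p of all 34 members in ELF compared with control. It read 0.81, 0.58, 0.82, 0.60 and 0.47 in control, 0.49, 0.67, 0.02, 0.44 and 0.24 in E1, and 0.18, 0.24, -1.25, 0.06 and -0.52 in ELF. All ELF arrays were below all control arrays, with ELF 3 lowest and ELF 5 next. The difference of -0.91 (SE 0.24) had a limma adjusted p of 0.059, and without ELF 3 it was -0.67 (limma adjusted p = 0.0548). In the authors' deposited value table the same gene differed by -0.98 with a limma adjusted p of 0.0183.

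Aqp1, the water channel of the apical membrane, went from 0.68 ± 0.37 (SD, n = 5) in control to -0.32 ± 0.52 (SD, n = 4) on the ELF arrays other than ELF 3, and read -3.80 on ELF 3. Steap1, a member of a metalloreductase family, went from 0.81 ± 0.28 to 0.14 ± 0.13 over the same arrays and read -3.16 on ELF 3. Clic6, a chloride intracellular channel family member, was 7.40-fold lower on ELF 3 than on the other ELF arrays. Trpv4, a cation channel that responds to osmotic and mechanical stimuli, was 6.04-fold lower, with ELF 4 as the next lowest of all arrays at -0.15. Aqp1 and Steap1 thus also lay lower on the ELF arrays other than ELF 3 than on any control array, whereas Clic6 and Trpv4 overlapped with control there.

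Both measured receptors were lower on ELF 3, Folr1 (the folate receptor that carries folate into the fluid) by 8.61-fold and Prlr (the prolactin receptor) by 4.36-fold relative to the other 4 ELF arrays. Prlr (probe at chr15:10394904-10394963 in mm7) read 0.58, 0.16, 0.55, -0.29 and -0.57 in control, -0.38, 0.21, -0.30, -0.11 and -0.60 in E1, and -0.53, -1.01, -3.03, -0.50 and -1.59 in ELF. ELF 1 and ELF 4 lay above control 5, and every ELF array lay below the other 4 control arrays. Prlr differed by -1.42 between ELF and control (SE 0.41, limma adjusted p = 0.0734) and by -0.99 without ELF 3. The 2 further Prlr probes gave -0.81 and -0.06, or -0.57 and 0.15 without ELF 3.

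Among junction genes, Cldn2, the pore-forming claudin of the choroid plexus, was 5.96-fold lower on ELF 3, and it had a second low array, E1 5, at -3.21. Cldn1, a sealing claudin, was 4.62-fold lower on ELF 3, where its probe was not well above background. Perp, a protein of desmosomes (probe at chr10:18579623-18579682 in mm7), read 0.79, 0.28, 0.47, -0.01 and -0.01 in control, 0.31, 0.44, -0.02, 0.11 and 0.05 in E1, and -0.30, 0.30, -0.81, -0.24 and 0.06 in ELF. Perp was among the members least lowered on ELF 3, 1.70-fold, and its groups overlapped. Its ELF minus control difference was -0.51 (SE 0.20, limma adjusted p = 0.157), and -0.35 without ELF 3.

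Otx2, the homeodomain factor that choroid plexus development requires (probe at chr14:43989807-43989866 in mm7), read -0.60, -1.05, -0.74, -1.48 and -1.40 in control. It read -1.63, -1.19, -1.61, -1.36 and -1.87 in E1 and -1.83, -3.06, -4.18, -1.65 and -1.46 in ELF. ELF 2 and ELF 3 were far below the rest, and ELF 5 lay within the control range. Otx2 differed by -1.38 between ELF and control (SE 0.42, limma adjusted p = 0.0855), and by -0.95 without ELF 3. Msx1, a homeobox factor that is not confined to this epithelium, was 1.89-fold lower on ELF 3, and its ELF minus control difference turned from -0.15 to 0.04 without that array. A further Msx1 probe stayed below 0, at -0.59 with ELF 3 and -0.39 without it. Of the remaining choroid plexus genes, Calml4 (calmodulin-like) was 6.26-fold, C230095G01Rik (now Tmem72, a membrane protein) 4.93-fold and Cab39l (a partner of the kinase Lkb1) 1.69-fold lower on ELF 3.

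**Figure D2:**
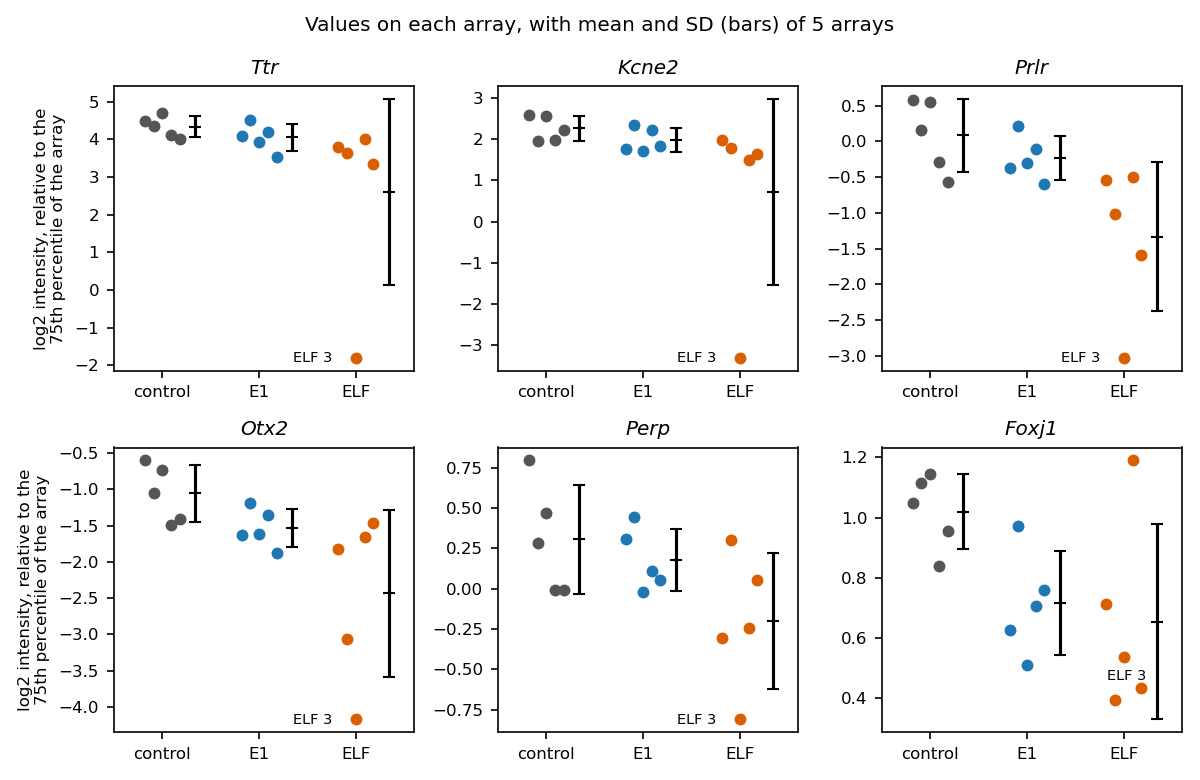
Points are single arrays for 6 genes, with group means and SDs as bars (n = 5); the y axis is log2 intensity relative to the 75th percentile of the array and differs between panels. For Ttr, Kcne2, Prlr, Otx2 and Perp the lowest point is ELF 3, while for Foxj1 it is ELF 2.

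The gap on ELF 3 was larger in most choroid plexus genes than in the ependymal genes, although the ranges overlapped. Relative to the mean of the other 4 ELF arrays, choroid plexus genes were lower by a median of 4.93-fold, ranging from 1.69-fold (Cab39l) to 45.3-fold (Ttr). Ependymal genes were lower by a median of 1.39-fold, ranging from 1.10-fold (Spag6) to 2.11-fold (Mlf1). ELF 3 lay at least 1 log2 unit under the next lowest of the 15 arrays for 18 of 23 choroid plexus genes, 0 of 11 ependymal genes and 0.28% of all genes. At 2 log2 units the numbers were 12 of 23, 0 of 11 and 0.0729% (19 genes in all). These gaps were chosen after the values were seen and carry no test. The other 7 of the 19 genes are no members: Tmem27, Wfdc2, C330016K18Rik, Dnase2a, 2810046M22Rik, Col8a1 and Col8a2. Of these, C330016K18Rik is an older name of Slc4a5, a sodium bicarbonate cotransporter on the list of 40 that found no match by name.

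**Figure D3:**
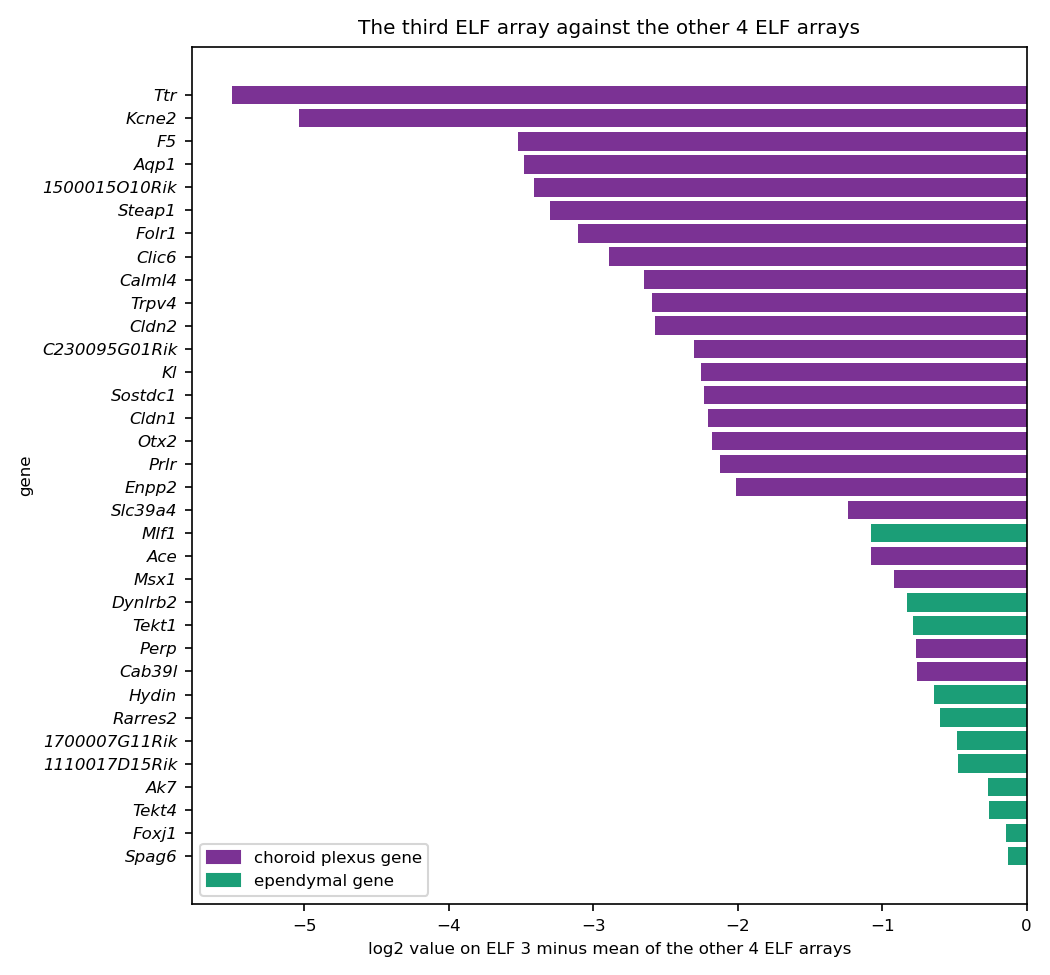
Bars give, for each of the 34 genes, the log2 value on ELF 3 minus the mean of the other 4 ELF arrays. Bars run from -5.50 (Ttr) to -0.76 (Cab39l) for choroid plexus genes and from -1.08 (Mlf1) to -0.13 (Spag6) for ependymal genes.

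Second probes of the same genes, which the choice of the brightest probe had left aside, had the same lowest array. Of 12 further probes of 10 choroid plexus genes, 12 were lowest on ELF 3, and of 6 further probes of 5 ependymal genes 3 were. Differences between ELF and control were smaller at these probes, with a median of -0.31 for choroid plexus genes and a range from -1.42 to 0.12. Without ELF 3 that median was -0.06. The probes of Folr1 disagreed, the further one differing by 0.12 where the brightest differed by -1.15. Those of Kl (-0.27 at the further probe, -1.07 at the brightest) and Msx1 (-0.59 and -0.15) also differed in size.

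The other arrays also differed among themselves in how much choroid plexus signal they held. Relative to the control mean, the median over the 23 genes was 0.30, -0.09, 0.28, -0.31 and -0.17 on control arrays 1 to 5. The same median was -0.21, 0.10, -0.32, -0.13 and -0.48 on the E1 arrays, and -0.53, -0.54, -3.12, -0.59 and -0.36 on the ELF arrays. All ELF arrays were thus below all control arrays in this median, narrowly so for ELF 5 (-0.36) against control 4 (-0.31), and E1 5 was below ELF 5. In 21 of 23 genes control 1 and control 3 were the highest control arrays, a pattern chosen after the values were seen that 7.38% of all genes and 2 of 11 ependymal genes (Tekt1 and Mlf1) had. Medians of meningeal fibroblast markers were likewise highest on control 1 and control 3 (0.54 and 0.27), as were those of endothelial markers (0.48 and -0.04). Those of hippocampal neuron markers were not (-0.09 and -0.03). E1 2 was the highest E1 array for 18 of 23 choroid plexus genes, 8 of 11 ependymal genes and 15.6% of all genes.

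E1 compared with control holds the foot shock and the later re-exposure together, which cannot be told apart. Choroid plexus genes had a median of -0.23 (all genes 0.04), from -0.48 for Otx2 to 0.09 for Cldn1 leaving aside the saturated Enpp2 probe, with 20 of 23 below 0 where 41.5% of all genes were. None of the 23 passed limma's test, against 0.188% of all genes, and none had an unadjusted p under 0.05. In none of the 23 were all E1 arrays below all control arrays (1.62% of all genes) or all above (2.08%). The median was -0.11 without control 1, -0.15 without control 3 and -0.15 without E1 5. With slide as a random block it was 0.08, with 8 of 23 genes below 0, and on slide 2, which holds 3 E1 arrays and 1 control array, the E1 minus control difference of the array medians was 0.03. The random-block fit includes ELF 3, which lay on slide 3 with E1 4 and E1 5, and the slide 2 value rests on 1 control array. The direction in E1 thus differed between these readings, and the part of ELF 3 in this was not tested.

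Ependymal genes were read in the same way. In ELF their median difference from control was -0.13 (all genes 0.10), with 7 of 11 below 0, from -0.44 for Tekt1 to 0.15 for Rarres2 and Tekt4. None of the 11 passed limma's test, and in none did ELF and control arrays separate. Ak7 and Foxj1, 2 of the 11, had an unadjusted p under 0.05. The share of all genes under it was not counted, so this count is no result about the ependymal genes. Without ELF 3 the median was -0.03 and without ELF 2 it was -0.23. Without ELF 4 both Foxj1 (-0.50, limma adjusted p = 0.0137) and Ak7 (-0.45, limma adjusted p = 0.0266) were called lower, but that fit called 19.6% of all genes in either direction and 2.75% lower.

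Foxj1, the factor that switches on motile ciliogenesis (probe at chr11:116439945-116440004 in mm7), read 1.05, 1.11, 1.15, 0.84 and 0.95 in control. It read 0.63, 0.97, 0.51, 0.71 and 0.76 in E1 and 0.71, 0.39, 0.54, 1.19 and 0.43 in ELF. ELF 4 held the highest Foxj1 value of all 15 arrays while the other 4 ELF arrays were below every control array. ELF 3, the lowest array for the choroid plexus, was only 1.11-fold below the other ELF arrays in Foxj1. The differences from control were -0.31 in E1 (limma adjusted p = 0.376) and -0.37 in ELF (limma adjusted p = 0.147).

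Ak7, an adenylate kinase of motile cilia (probe at chr12:103268777-103268836 in mm7), read 0.32, 0.21, 0.32, 0.41 and 0.17 in control. It read -0.14, 0.15, -0.31, -0.40 and 0.03 in E1 and 0.08, -0.14, -0.30, 0.25 and -0.30 in ELF. Each E1 array was below each control array, a separation in that direction seen in 1.62% of all genes, and ELF 4 alone of the ELF arrays reached into the control range. The E1 difference was -0.42 (SE 0.13, limma adjusted p = 0.162). Ak7 rests on probes that disagree, since 2 further probes gave ELF minus control differences of -0.83 and 1.03 beside the -0.37 of the brightest.

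Structural genes of the cilium differed from control in both directions. Tekt1, a filament protein of ciliary microtubules, differed by -0.44 in ELF and Tekt4, of the same family, by 0.15. Dynlrb2, a light chain of the dynein motor, differed by -0.19, Hydin and Spag6 (now Spag6l), both of the central pair of microtubules, by 0.14 and 0.03. Rarres2, the secreted protein chemerin, 1700007G11Rik (now Cfap299), Mlf1 and 1110017D15Rik differed by 0.15, -0.06, -0.29 and -0.13. Without ELF 3 the differences were -0.29 for Tekt1, -0.03 for Dynlrb2, 0.27 for Hydin, -0.07 for Mlf1 and 0.03 for 1700007G11Rik. In E1 the 11 genes had a median of -0.20 with 9 below 0, and none passed limma's test. An unadjusted p under 0.05 was held by 2 of them (share of all genes not counted). ELF 2 held the highest of all 15 values for 6 of the 11, but ELF 2 was also the highest array for 46.4% of all genes.

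In ELF compared with E1, which asks how the late trial differed from the first, all 23 choroid plexus genes were below 0, with a median of -0.89 (all genes 0.05). None passed limma's test, against 0.00766% of all genes, and 9 had an unadjusted p under 0.05 (share of all genes not counted). The smallest adjusted p was 0.420, for C230095G01Rik at -1.11 (-0.65 without ELF 3). Without ELF 3 the median was -0.36, and on slide 3, which holds 2 arrays of each group, it was -1.55 with ELF 3 among them and -0.29 for the remaining ELF array. Ependymal genes had a median of 0.02 in this comparison, with 5 of 11 below 0, none called and none with an unadjusted p under 0.05. The 3 comparisons share arrays, so their values are not independent of each other.

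**Figure D4:**
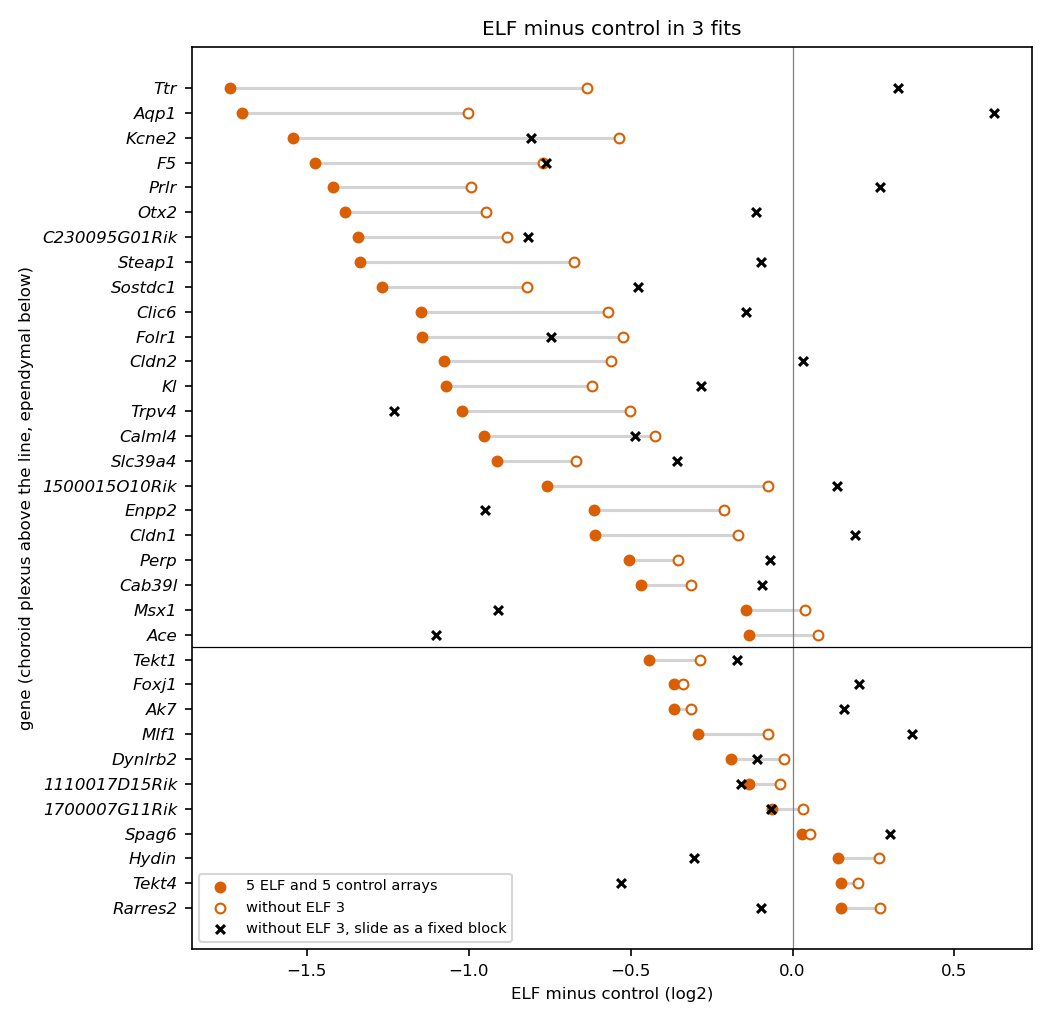
Points give the ELF minus control difference (log2) of each gene with all arrays (filled), without ELF 3 (open) and without ELF 3 with slide as a fixed block (cross). Leaving out ELF 3 moved Ttr from -1.74 to -0.64, and crosses of choroid plexus genes lie on both sides of 0.

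Slide touched these comparisons as well. With slide as a fixed block the choroid plexus median in ELF compared with control was -1.46 where the all-gene median was -0.22, but that fit compares ELF with control through slides 2 and 3, and slide 3 holds ELF 3. With the block and without ELF 3, a fit added after the values were seen, the median was -0.28 and the all-gene median -0.27. That fit links ELF to control only through ELF 4 on slide 3 and control 5 on slide 2. ELF 4 also held the lowest value of all 15 arrays for 32.5% of all genes. In that fit 17 of 23 genes were below 0, and 3 (Ace, Trpv4 and Msx1) were called lower, a share below that of all genes, of which 19.7% were called and 18.2% called lower. With all 15 arrays and a random slide block the median was -1.25. The correlation between arrays of a slide was 0.47 over all genes.

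Further genes of the same 2 tissues came from lists chosen with earlier results of these data known. Of 31 other choroid plexus genes, 4 fell in ELF compared with control and none rose (0.651% of all genes fell), with a median of -0.58 and 29 of 31 below 0. Trpm3, a cation channel gene, fell by 0.53 (limma adjusted p = 0.027) and Slco1c1, a thyroid hormone transporter, by 0.73 (limma adjusted p = 0.0441). Stk39, a kinase that regulates chloride cotransporters, fell by 0.97 (limma adjusted p = 0.0467), and Igf2, a growth factor also made by the meninges, by 0.90 (limma adjusted p = 0.0477). Without ELF 3 only Trpm3 of the 4 was still called, at -0.50 (limma adjusted p = 0.0327). The other 3 kept differences of -0.99 (Stk39, limma adjusted p = 0.058), -0.65 (Slco1c1, limma adjusted p = 0.063) and -0.73 (Igf2, limma adjusted p = 0.0622). With slide as a random block none of the 4 was called, but neither was any other of the 26117 genes. The same held with only the 2 groups fitted, and without control 2 or control 3. Over 26 alternative settings Trpm3 was called in 17 and each of the other 3 in 9. Over the same settings the number of all genes called ran from 0 to 5136. In E1 none of the 31 was called (1 with an unadjusted p under 0.05) and the median was -0.16, with Car12 and Slco1c1 closest at -0.33 each. In ELF compared with E1 none was called, the median was -0.42, and Trpm3 and Slc4a2 were closest. Here 15 had an unadjusted p under 0.05 (share of all genes not counted). On ELF 3 their median was -1.05, and 24 of the 31 had their lowest value there.

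Of 38 other genes of motile cilia none was called in any comparison, with 18 at an unadjusted p under 0.05 in ELF compared with control, 12 in E1 compared with control and 6 in ELF compared with E1. The shares of all genes under that threshold were not counted. Medians of the 38 genes were -0.12, -0.13 and -0.03 in the same order. In ELF compared with control the smallest p belonged to Wdr63 (-0.68, limma adjusted p = 0.0565). In E1 it was Rfx3, an RFX factor of ciliary genes (-0.65, limma adjusted p = 0.0519), and Iqcg (-0.36, limma adjusted p = 0.157). On ELF 3 their median was -0.43 and 15 of 38 had their lowest value there.

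Markers of other cells were read on each array beside these values. The median of 17 hippocampal neuron markers relative to control lay between -0.17 and 0.11 on all 15 arrays and was 0.08 on ELF 3, and none of them was called in any comparison. Astrocyte markers stood at 0.23 on ELF 3, and meningeal fibroblast markers at -0.47 there, within their range of -0.48 to 0.70. Endothelial markers were lower in both trained groups. Their median was between -0.24 and 0.48 on control arrays, between -0.54 and -0.38 on E1 arrays and between -0.93 and -0.29 on ELF arrays (-0.70 on ELF 3). Compared with control, 2 of 16 were called lower in E1 (Cldn5 and Kdr), where 0.0536% of all genes were. In ELF 9 of 16 were called lower, among them Kdr and Abcb1a, against 0.651% of all genes. With slide as a random block no gene of any kind was called in either comparison. Medians of 17 thalamus and habenula markers were 0.06 to 0.54 on E1 arrays. They were -0.06 to 0.10 on control arrays and -0.15 to 0.13 on ELF arrays. Ramp3 among them was called higher in E1 compared with control (0.188% of all genes called). In ELF compared with control, Mcam and Rgs5 of 13 mural markers were called lower and Acsbg1 of 14 astrocyte markers higher (2.1% of all genes called). The part of these cells in the choroid plexus values was not tested.

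**Figure D5:**
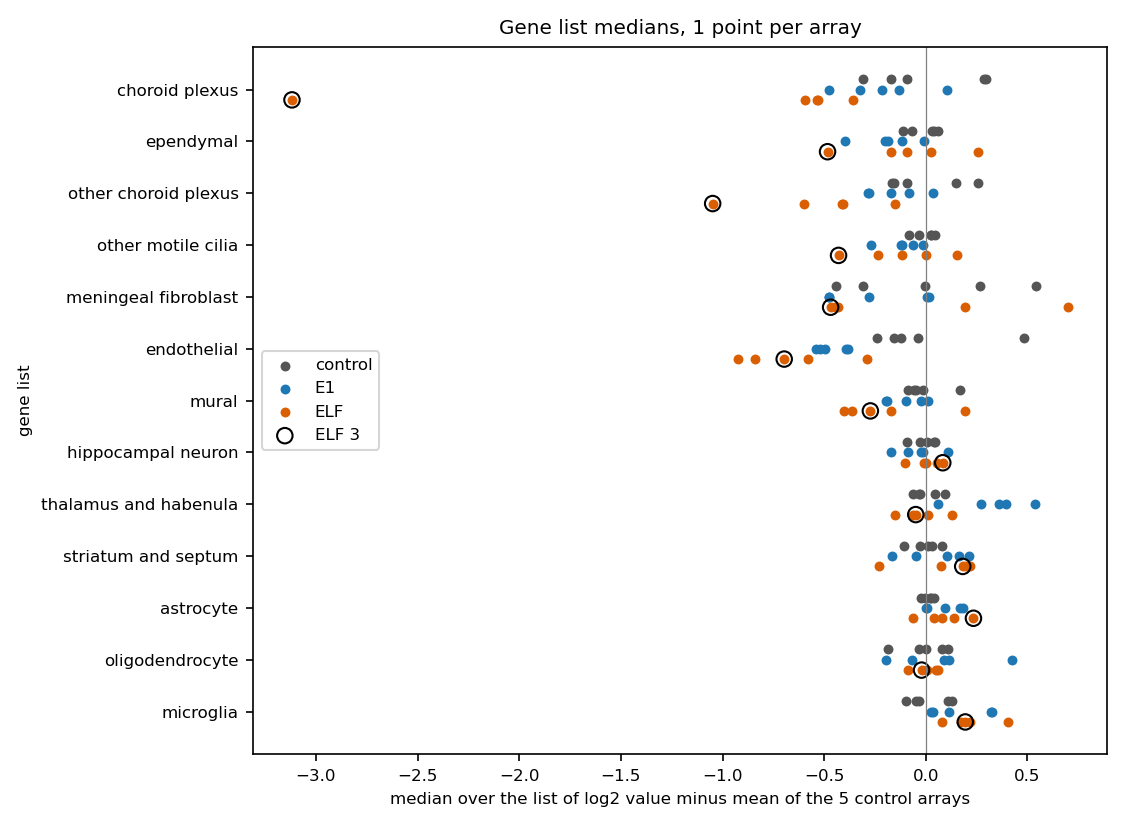
Each point is an array and gives the median, over a gene list, of the log2 value minus the control mean; a ring marks ELF 3. ELF 3 stands apart at -3.12 for choroid plexus genes and at -1.05 for the other choroid plexus genes, and lies at 0.08 for hippocampal neuron markers.

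For 6 of the 40 names (Slc4a5, Kcnj13, Mfrp, Ccdc153, Tmem212 and Rsph1) no probe carried the listed name. Kcnj13 is a potassium channel and Mfrp a frizzled-related membrane protein of the choroid plexus set, and Rsph1 is a radial spoke protein of cilia. Of the 6, 3 were on the array under an older name. Slc4a5, as C330016K18Rik, had 2 probes, of which one was lowest on ELF 3, -2.70 relative to the other ELF arrays, and differed by -1.15 between ELF and control (-0.61 without ELF 3), whereas the other was lowest on ELF 4 and differed by 0.27. Tmem212, as E030011K20Rik, differed by -0.03, and Rsph1, as Tsga2, by -0.28. Both differences lay within the range of the 11 ependymal genes in ELF compared with control, and neither gene had its lowest value on ELF 3.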

How the data were processed

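Total RNA of 15 hippocampi was measured on 15 single-colour Agilent mouse arrays (5 per group), 1 per mouse. Per the file headers, the authors read them with Agilent Feature Extraction 9.5.3.1, whose processed intensity is background-subtracted. The value table that the authors deposited is on a log2 scale, with medians of 8.68 to 8.92 per array, and followed log2 of the mean spot intensity (r at least 0.996 across spots on each array); its normalization between arrays is unknown. limma is named in the submitters' processing notes. The members and gene lists were chosen with earlier results of these data known.

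Control spots (1639 of 45018) and outlier spots were left out. Processed intensities were scaled to the 75th percentile of the array (1445 to 2929), logged and averaged over spots to 41174 probes. A probe had to be well above background on at least 5 of 15 arrays. The brightest probe stood for a gene name, giving 26117 genes. The two-sided lmFit and eBayes test of limma 3.58.1 (R 4.3.3), with all 15 arrays and no covariate, was run over all of them, with Benjamini-Hochberg adjustment and a threshold of 0.05, after a test on simulated data. Counts of lowest arrays and of non-overlapping groups used genes without missing values (26052 for the former). The number of arrays limits the precision.

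Genes given with a value on every array were Ttr, Kcne2, Foxj1 and the gene of each role with the smallest p in ELF compared with control. From the other choroid plexus and motile cilia lists, called genes and some with the smallest p are named. From the endothelial list only some of the called genes are named. Slide numbers come from the barcodes in the array file names. Same-numbered E1 and control arrays deviated together (correlations over genes 0.14 to 0.30 in all 5 pairs), although no label says what a number shares. However, E1 2 and E1 3 each correlated more with a control array of another number. Same-numbered ELF and control arrays did not deviate together (-0.43 to 0.31). With the replicate block 12 genes rather than 49 were called in E1 compared with control, with no member among them in either fit. Alternatives changed the background correction, scaling, values, filter, probe choice, slide or replicate block, groups fitted and arrays left out. Probe coordinates are on mm7, per the file headers, and promoters on GRCm38.p6; the place of a probe within its transcript was not analysed here.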

Additional observations from a re-analysis of the deposited data

Results flagged for a closer look

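The lowest and the highest array of 102 groups of 5 arrays (34 genes in 3 groups) were set against Dixon's 95% limit for 5 values. In 13 groups an array lay further from its nearest neighbour than the limit allows, always the lowest. Chance gives about 1 in 20 over both ends. Of these, 12 concerned the third ELF array. Its values were -1.81 for Ttr, -1.37 for Kl, 2.67 for Enpp2, -1.57 for Sostdc1, -0.80 for 1500015O10Rik and 0.15 for Clic6. They were -3.31 for Kcne2, -3.16 for Steap1, -1.82 for Folr1, -4.39 for Cldn2, -2.17 for Calml4 and -5.62 for C230095G01Rik. The nearest other ELF value was, for example, 3.35 for Ttr, 0.79 for Kl and 1.51 for Kcne2.

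The remaining case was Cldn2 on the fifth E1 array, at -3.21, where the next E1 value was -1.48. Genes of one tissue share their arrays, so the 13 cases are not independent of each other, and no ependymal gene was among them.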

How the results depend on the processing

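The choroid plexus median in ELF compared with control was below 0 in all 26 alternatives, and the numbers called moved most. Of 23 genes 0 were called in ELF compared with control as reported, 4 with normexp and quantile normalization (1118 of all genes), 5 with the array median as the scale (1204), 6 in the authors' deposited table (1586) and 1 with probes well above background on all 15 arrays (769), against 548 of all genes as reported. With each array left out in turn the number was 0 to 7, being 7 without ELF 4 (5123 of all genes), 2 without control 5 (2110) and 1 without ELF 3 (582); among ependymal genes it was 0 to 2, being 2 without ELF 4. With slide as a fixed block 7 choroid plexus genes were called in ELF compared with E1 (5043 of all genes). The ependymal medians became -0.33 against control and -0.29 against E1, where the all-gene medians were -0.22 and -0.18. Without ELF 3 and with that block, an alternative chosen after seeing the data, the choroid plexus median in ELF compared with control was -0.28, with 3 genes called (19.7% of all genes), and 4 were called in ELF compared with E1 (29.8% of all genes), both below the share of all genes. Without ELF 3, that block links ELF to control only through ELF 4 and control 5. The causes were not tested. With arrays left out in turn, medians of choroid plexus genes ranged from -1.27 to -0.56 (ELF, control), -1.03 to -0.36 (ELF, E1) and -0.31 to -0.11 (E1, control), and ependymal ones from -0.23 to -0.03, -0.03 to 0.15 and -0.25 to -0.14. With the replicate block the 3 choroid plexus medians were -1.08, -0.89 and -0.23 and 0 members were called, so the pairing of array numbers changed no member's call. The array median as the scale moved the all-gene median in ELF compared with control from 0.10 to -0.0021. Over all genes the number called in ELF compared with control ran from 0 (random slide block, also without control 2 or control 3 and with only those groups fitted) to 5136. Signal limits the dim genes, of which Cldn1 was not well above background on ELF 3.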

Other observations

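Outside the listed names, the genes with the widest gap of the third ELF array under the next lowest array were Tmem27 (2.79 log2 units), Wfdc2 (2.77), Dnase2a (2.48), 2810046M22Rik (2.23), Col8a1 (2.09) and Col8a2 (2.05), chosen after their values were seen. Tmem27 and Wfdc2 encode proteins of secretory and transporting epithelia, and Col8a1 and Col8a2 encode the chains of a short collagen. Among the next in this order were Abca4 (1.97), a retinoid transporter, Pon1 (1.95), a secreted esterase, and Krt18 (1.90), a keratin of simple epithelia. For comparison, the gaps were 5.15 for Ttr and 4.81 for Kcne2. None of these values carries a test.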
